A study of Mus musculus with 2 samples.

Results

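The mitochondrial genome of the mouse is a small circular DNA, separate from the nuclear chromosomes, and every transcript it encodes is described here. The members were all rows of either deposited table whose symbol starts with mt-, 37 of the 24071 genes listed: 13 protein genes, 2 ribosomal RNA genes and 22 transfer RNA genes, which make up the whole gene set of the mitochondrial genome. The CD133+ non-traced library listed all 37 and the CD133+ DNGR-1 traced library 34, with no count of mt-Te, mt-Th or mt-Ty. The set was chosen by its measured share of UMIs in both libraries, and mt-Nd3 was singled out on the difference of its share between them. The levels and differences below are therefore descriptions and carry no test.

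Single cells came from the spinal cords of adult Clec9acre/cre R26 LSLtdTomato/LSLtdTomato mice on the C57BL/6j background, aged 10 to 12 weeks. Both libraries shared this genotype. Cre is made from the Clec9a locus, which encodes the dendritic cell receptor DNGR-1, and a cell that has expressed it, or whose ancestor did, turns tdTomato+. Live CD45- CD133+ cells were sorted into tdTomato+ (traced) and tdTomato- (non-traced) fractions. Each fraction was 1 library, so that the trace, the sort gate and the library cannot be told apart, and the number of animals behind a library was not given in the sources used here. The study compared these fractions to ask whether traced and non-traced ependymal cells, the ciliated cells around the central canal, are distinct subtypes. Its wider question was whether ependymal cells hold latent stem cell ability. Values are UMIs (unique molecular identifiers, each of which tags 1 captured RNA) from a kit that reads transcripts at their 3′ end. The non-traced library held 25411 cells with 233318692 UMIs, the traced library 4825 cells with 46530507 UMIs, and 42 barcodes occurred in both.

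Cells were clustered without the mitochondrial rows and named from marker genes, separately for the part of a cluster in each library. There were 1156 ependymal-like and 21091 endothelial-like cells in the non-traced library and 4762 and 55 in the traced library. From here on, values written "from A to B" run from the non-traced to the traced library. All 10 ependymal markers, such as Foxj1, the regulator of motile cilia, reached 10 CPM (counts per 1000000 UMIs of the summed cells) in both ependymal-like groups, and all 8 endothelial markers, such as the tight-junction gene Cldn5, did so in both endothelial-like groups. Prom1, which encodes the sorted CD133, went from 25.5 to 10.2 CPM in ependymal-like and from 335.5 to 313 CPM in endothelial-like cells. The reporter row WPRE-tdTomato went from 72.9 to 317.5 CPM and from 65.4 to 334 CPM, higher in the traced library in both classes but present in both libraries. The classes were not equally clean. In ependymal-like cells the endothelial markers went from 318 to 42.7 CPM in sum, beside ependymal markers that went from 10434 to 9263 CPM. In endothelial-like cells the ependymal markers went from 27.2 CPM to 797 CPM, all 10 reaching 10 CPM in the 55 traced cells. The part of this foreign RNA in the values below was not tested. Most ependymal-like cells of the libraries lay in different clusters, the non-traced ones in clusters 11 and 14 and the traced ones mainly in clusters 7, 8 and 9.

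Mitochondrial DNA is transcribed from both strands as long precursors. The transfer RNAs sit between the other genes, and their excision frees the messenger and ribosomal RNAs, most of which then receive a short poly(A) tail. The messenger RNAs encode core subunits of the respiratory chain and of ATP synthase, all other subunits being encoded in the nucleus, and ependymal cells are rich in mitochondria that supply their beating cilia.

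A stretch of the mitochondrial genome is also present in the nuclear annotation, which bears on how its reads could be counted. In GRCm38 (mm10), 7 unprocessed pseudogenes on the minus strand of chromosome 1, between positions 24611535 and 24616197, repeat mitochondrial genes in their order. Gm28438 (24612775 to 24613119) has an unbroken match of 342 of the 348 bases of mt-Nd3 (mitochondrial genome, plus strand, 9459 to 9806). The matches were 783 of 784 bases for mt-Co3, 678 of 681 for mt-Atp6, 681 of 684 for mt-Co2, 294 of 297 for mt-Nd4l, 876 of 1378 for mt-Nd4 and 482 of 1545 for mt-Co1. Both members of each pair were rows of the tables. Reads that fit both may have been dropped or split, so the levels of these genes are uncertain. The first 60 bases of mt-Nd3 and Gm28438 are shown because the capital marks their only difference over the 345 bases both annotations hold (T3C, counted from the first base of mt-Nd3), in GENCODE M21 transcript sequence. The plus-strand mt-Ts2 (11613 to 11671) and the minus-strand mt-Tc (5192 to 5257) are shown whole as the transfer RNAs with the highest levels in endothelial-like cells of both libraries, with a run of A in capitals that no other in the same sequence exceeds.
mt-Nd3: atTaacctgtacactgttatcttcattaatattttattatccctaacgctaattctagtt
Gm28438: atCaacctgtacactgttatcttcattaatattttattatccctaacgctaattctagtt
mt-Ts2: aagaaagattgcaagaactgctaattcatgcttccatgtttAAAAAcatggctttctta
mt-Tc: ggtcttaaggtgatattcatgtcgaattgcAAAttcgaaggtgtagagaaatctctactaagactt

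Mitochondrial transcripts made up a larger share of UMIs in ependymal-like than in endothelial-like cells, and a larger share in the non-traced than in the traced library. In ependymal-like cells the summed share went from 5.79% of UMIs (exact binomial 95% interval 5.78 to 5.81) to 4.08% (4.07 to 4.09). In endothelial-like cells it went from 3.39% (3.39 to 3.39) to 2.29% (2.25 to 2.33). These and all later intervals cover counting error only, with 1 library per group, and not the spread between animals, sorts or libraries. The 4 groups stood apart by these intervals, but single cells overlapped widely. The middle 50% of ependymal-like cells lay between 4.86% and 6.97% in the non-traced and between 3.39% and 4.76% in the traced library. For endothelial-like cells these bounds were 2.75% and 4.23%, then 1.82% and 2.93%. More than 10% mitochondrial UMIs was found in 38 of 1156 ependymal-like cells of the non-traced library (3.29%, interval 2.34 to 4.48) and in 63 of 4762 of the traced library (1.32%, interval 1.02 to 1.69). Among endothelial-like cells these were 33 of 21091 (0.156%, interval 0.108 to 0.220) and 0 of 55 (upper bound 6.49%).

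**Figure D1:**
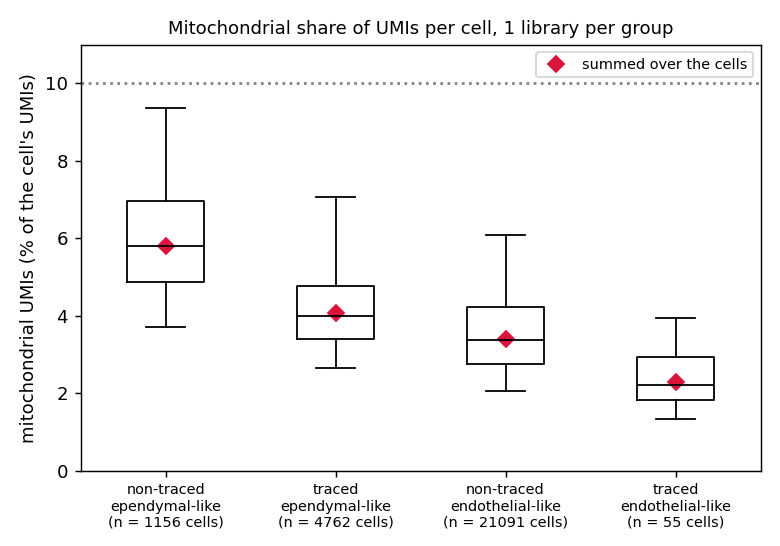
Mitochondrial UMIs as a percent of each cell's UMIs in the 4 groups, 1 library each. Boxes span the middle 50% of cells with the median, whiskers the 5th to 95th percentile, red diamonds the share summed over cells, and the dotted line marks 10%; the diamonds fall from 5.79% for the non-traced ependymal-like group to 2.29% for the traced endothelial-like group.

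The share moved with the depth of a cell within every group large enough to divide. Over 4 equal classes of depth it fell, from the shallowest to the deepest cells, from 6.97% to 5.22% in the non-traced and from 4.82% to 3.73% in the traced ependymal-like group, and from 4.12% to 2.95% in the non-traced endothelial-like group. The deepest non-traced ependymal-like cells had 5.22% and the shallowest traced ones 4.82%. The part of depth in the difference between the libraries was not tested. Depth itself differed, the median going from 7067.5 to 8562.5 UMIs in ependymal-like cells. Of the cells over 10%, 29 of 38 and 59 of 63 ependymal-like cells were in the shallowest class. Among cells of 5000 to 10000 UMIs the ependymal-like share went from 5.83% to 4.24%.

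The 2 ribosomal RNAs and 1 messenger RNA carried most of the mitochondrial UMIs. The large ribosomal RNA mt-Rnr2 went from 44.9% to 43.1% of them in ependymal-like cells and from 57.5% to 53.4% in endothelial-like cells. The small ribosomal RNA mt-Rnr1 went from 13.2% to 11.4% and from 11.7% to 9.59%. mt-Cytb, which encodes cytochrome b of complex III, went from 17.9% to 18.98% in ependymal-like and from 10.98% to 14.0% in endothelial-like cells. The 13 protein genes together held 41.8% and 45.4% of the mitochondrial UMIs of ependymal-like cells in the non-traced and traced library, and 30.2% and 36.7% of those of endothelial-like cells. Protein genes were thus a larger part of mitochondrial RNA in ependymal-like cells in both libraries, and ribosomal RNA a larger part in endothelial-like cells. The 22 transfer RNAs went from 0.0078% to 0.00605% of all UMIs in ependymal-like cells and from 0.0203% to 0.00826% in endothelial-like cells.

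Per kilobase of gene, mt-Atp8 and mt-Cytb led the messenger RNAs and mt-Co3 and mt-Co2 were lowest. Since the kit reads the 3′ end, counts need not grow with gene length, and this scale raises short genes such as mt-Atp8. In CPM mt-Atp8 did not lead: in traced ependymal-like cells it had 1658 CPM, below mt-Cytb (7746), mt-Nd2 (2755) and mt-Nd4 (2132). In traced ependymal-like cells mt-Atp8 reached 8128 CPM per kilobase and mt-Cytb 6771, while mt-Co2 had 50.2 and mt-Co3 16.6 CPM per kilobase. The low pair belongs to the genes with a nuclear copy of almost full length, as do mt-Nd3 with 112, mt-Nd4l with 302 and mt-Atp6 with 468 CPM per kilobase in the same cells. These 5 genes together went from 1.43% to 1.21% of mitochondrial UMIs in ependymal-like cells. The part of dropped reads in these levels was not tested. The bicistronic messenger RNA of ATP synthase showed its uncertain division between overlapping rows: mt-Atp8 (7766 to 7969) overlaps mt-Atp6 (7927 to 8607), yet mt-Atp8 was the higher of the pair per kilobase in all 4 groups.

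**Figure D2:**
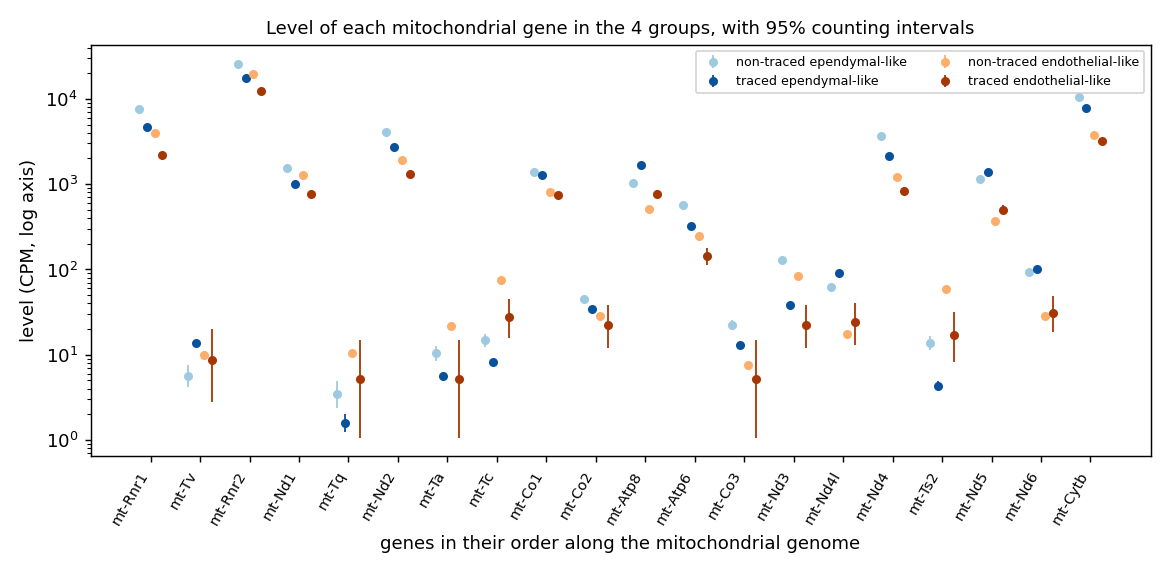
Level in CPM (log axis) of the 20 mitochondrial genes that reached 10 CPM in any group, in their order along the mitochondrial genome, with exact Poisson 95% intervals of the summed counts. Levels span from above 10000 CPM for mt-Rnr2 to below 2 CPM for mt-Tq in traced ependymal-like cells.

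mt-Nd3, a core subunit in the membrane arm of complex I, had the largest difference between the libraries of the mitochondrial genes with at least 50 CPM. Its level in ependymal-like cells was 128 CPM in the non-traced library (interval 120.2 to 135.4, 1100 UMIs) and 38.8 CPM in the traced library (37.05 to 40.7, 1780 UMIs). In endothelial-like cells it was 83.1 CPM (81.7 to 84.4, 15392 UMIs) and 22.4 CPM (11.9 to 38.3), the latter from only 13 UMIs. Both traced groups lay below both non-traced groups. The traced level was 3.29-fold lower in ependymal-like and 3.71-fold lower in endothelial-like cells, a difference in log2(CPM + 1) of -1.69 (interval -1.83 to -1.61) and -1.85 (-2.80 to -1.12). The intervals given with log2 differences, here and below, are those of the ratio without the pseudocount. As a share of mitochondrial UMIs mt-Nd3 went from 0.220% to 0.0952% in ependymal-like and from 0.245% to 0.0977% in endothelial-like cells, so that the log2 differences were smaller on this scale, at -1.21 and -1.32. After each cell had been thinned to 1000 UMIs, which no cell fell short of, the part of ependymal-like cells with a mt-Nd3 UMI went from 13.7% to 3.82% (56.7% to 29.7% before thinning). The nuclear copy Gm28438 had 6 UMIs in either ependymal-like group, 69 in the non-traced and 0 in the traced endothelial-like group. With its counts added to mt-Nd3, an alternative chosen after the data were seen, the differences were again -1.69 and -1.85. So few counts could hardly have moved them. Reads dropped because they fit both rows would be in neither, and their part was not tested.

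Cluster by cluster, mt-Nd3 kept apart by library. It lay between 119 and 146 CPM in the 2 non-traced ependymal-like clusters and between 13.0 and 47.8 CPM in the 6 traced ones. The 10 non-traced endothelial-like clusters had 62.7 to 108 CPM. The 2 traced ones of at least 20 cells had 23.8 CPM (7.72 to 55.5, 5 UMIs) and 32.3 CPM (14.0 to 63.7, 8 UMIs). Of the clusters in these classes none of the traced library reached the lowest of the non-traced library. Cluster 14, led by Ucma and Vtn, was the one ependymal-like cluster with at least 20 cells of both libraries, 371 and 187. In it mt-Nd3 went from 146 CPM (132 to 161) to 45.5 CPM (36.5 to 56.1), and the mitochondrial share from 5.42% to 3.61%. The lowest level, 13.0 CPM (5.21 to 26.7), came from 7 UMIs in 38 traced cells led by the proliferation genes Mki67 and Top2a, which also had the lowest share of the traced ependymal-like clusters, 2.88%. Between the shallowest and the deepest ependymal-like cells mt-Nd3 went from 144 to 123 CPM within the non-traced and from 41.1 to 37.6 CPM within the traced library. The part of depth in its difference between the libraries was not tested.

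**Figure D3:**
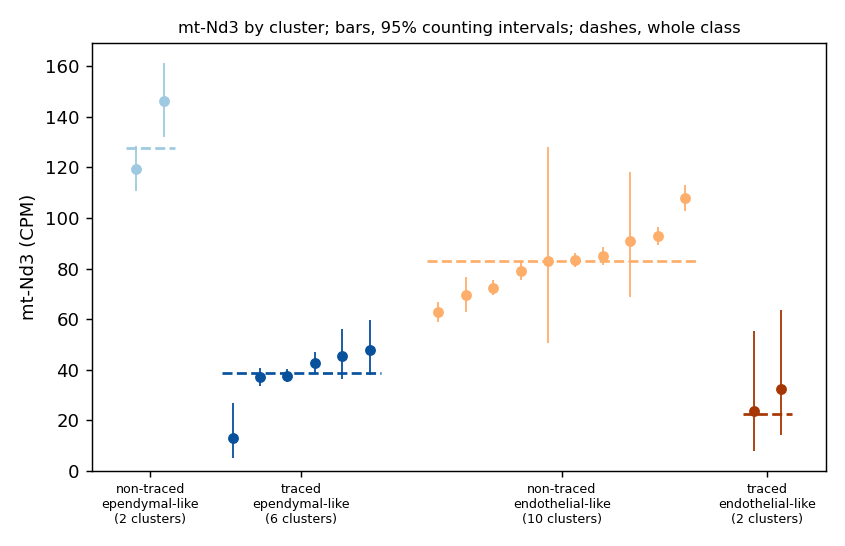
mt-Nd3 in CPM for each cluster of the 4 groups (points, clusters of at least 20 cells, ordered by level within a group) with exact Poisson 95% intervals; dashed lines give the level over the whole class. Clusters of the traced library lie at 47.8 CPM or lower and those of the non-traced library at 62.7 CPM or higher.

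At 50 CPM or more, mt-Nd3 was the only mitochondrial gene past a 2-fold difference between the libraries in ependymal-like cells. This level was reached in either group by 13 of the 37 members, the ribosomal RNAs and all protein genes but mt-Co2 and mt-Co3. Of these 13, 1 was lower by at least 1 on the log2 scale and none was higher, against 19 of all 3985 genes lower (0.477%) and 23 higher (0.577%). This contrast chose the gene, so nothing is read from the count. The median difference of the 13 was -0.56, beside 0.03 over all genes of that level. In endothelial-like cells 13 members reached that level, with mt-Tc and mt-Ts2 in place of mt-Nd4l and mt-Nd6. Of these 13, mt-Nd3, mt-Tc and mt-Ts2 were lower by at least 1, which is 3 genes, against 22 of all 3933 genes lower (0.559%) and 151 higher (3.84%), and the median was -0.67 beside 0.04. These 3 genes reached 50 CPM only in the non-traced group, which favours a lower call, and mt-Nd3 was the gene singled out. Nothing is therefore read from this count either. As a share of mitochondrial UMIs mt-Tc was no longer past 2-fold in endothelial-like cells, at -0.90. The share of all mitochondrial rows itself differed by -0.51 on the log2 scale in ependymal-like and -0.57 in endothelial-like cells. Relative to that shift, that is as shares of mitochondrial UMIs, the 13 genes of each class had a median difference of -0.05 and -0.11, with 6 above and 7 below 0 in either class. The comparisons in the 2 classes used different cells of the same 2 libraries and so are not independent.

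The other complex I genes did not share the size of this difference. mt-Nd1 went from 1563 to 994 CPM in ependymal-like and from 1282 to 764 CPM in endothelial-like cells (log2 differences -0.65 and -0.74). mt-Nd2 went from 4053 to 2755 CPM and from 1936 to 1331 CPM (-0.56 and -0.54), and mt-Nd4 from 3719 to 2132 CPM and from 1208 to 842 CPM (-0.80 and -0.52). These core subunits were lower in the traced library in both classes, by less than 2-fold, except that as a share of mitochondrial UMIs mt-Nd2 and mt-Nd4 lay above 0 in endothelial-like cells (0.03 and 0.05). The remaining 3 genes of the complex lay above 0, though not beyond counting error for 2 of them in endothelial-like cells. mt-Nd4l, a small membrane subunit, went from 62.4 CPM (57.3 to 67.9) to 89.8 CPM (87.1 to 92.6) in ependymal-like cells and from 17.4 to 24.1 CPM in endothelial-like cells, the latter from 14 UMIs and with an interval of the log2 difference from -0.40 to 1.22. mt-Nd5, a proton-pumping subunit, went from 1154 to 1372 CPM and from 370 to 504 CPM. mt-Nd6, the only protein gene on the minus strand, went from 93.3 to 101 CPM (0.12, interval 0.01 to 0.23) and from 28.2 to 31.0 CPM, the latter from 18 UMIs (0.13, interval -0.62 to 0.80). With each library clustered alone the endothelial-like difference of mt-Nd6 turned to -0.40. mt-Nd4l and mt-Nd4 share 1 messenger RNA and went in opposite directions, with both rows in the stretch that the nuclear annotation repeats.

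The ATP synthase genes were likewise split. mt-Atp8 went from 1038 to 1658 CPM in ependymal-like cells, 1.60-fold higher in the traced library, and from 507 to 771 CPM in endothelial-like cells, 1.52-fold higher. mt-Atp6 went from 569 to 319 CPM, 1.78-fold lower, and from 250 to 143 CPM, 1.75-fold lower. The overlapping rows of 1 messenger RNA thus moved in opposite directions in both classes. As a share of mitochondrial UMIs mt-Atp8 went from 1.79% to 4.06% in ependymal-like and from 1.49% to 3.37% in endothelial-like cells, a log2 difference of 1.18 and 1.17. On that scale mt-Nd4l also passed a 2-fold difference, at 1.03 and 1.04, and mt-Nd5 did so in endothelial-like cells at 1.02, beside 0.76 in ependymal-like cells.

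The remaining messenger RNAs and the ribosomal RNAs differed by less than 2-fold. Of complex IV, mt-Co1, the catalytic subunit, went from 1378 to 1278 CPM in ependymal-like and from 815 to 744 CPM in endothelial-like cells. mt-Co2, which takes electrons from cytochrome c, went from 44.8 to 34.3 CPM and from 28.7 to 22.4 CPM, the last from 13 UMIs. mt-Co3 went from 22.4 to 13.0 CPM and from 7.68 to 5.17 CPM, the last from 3 UMIs, so that the interval of the endothelial-like difference reached from -2.85 to 0.98. mt-Cytb went from 10398 to 7746 CPM and from 3725 to 3195 CPM (-0.42 and -0.22), a smaller difference than that of the ribosomal RNAs. mt-Rnr1 went from 7651 to 4635 CPM and from 3965 to 2197 CPM (-0.72 and -0.85), and mt-Rnr2 from 25985 to 17580 CPM and from 19493 to 12219 CPM (-0.56 and -0.67). As a share of mitochondrial UMIs mt-Co1 (0.40 and 0.43), mt-Co2 (0.12 and 0.21) and mt-Cytb (0.08 and 0.34) lay above 0 in ependymal-like and endothelial-like cells, while the ribosomal RNAs stayed below. In CPM, below 0 lay 9 of the 13 mitochondrial genes of at least 50 CPM in ependymal-like cells and 11 of 13 in endothelial-like cells.

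**Figure D4:**
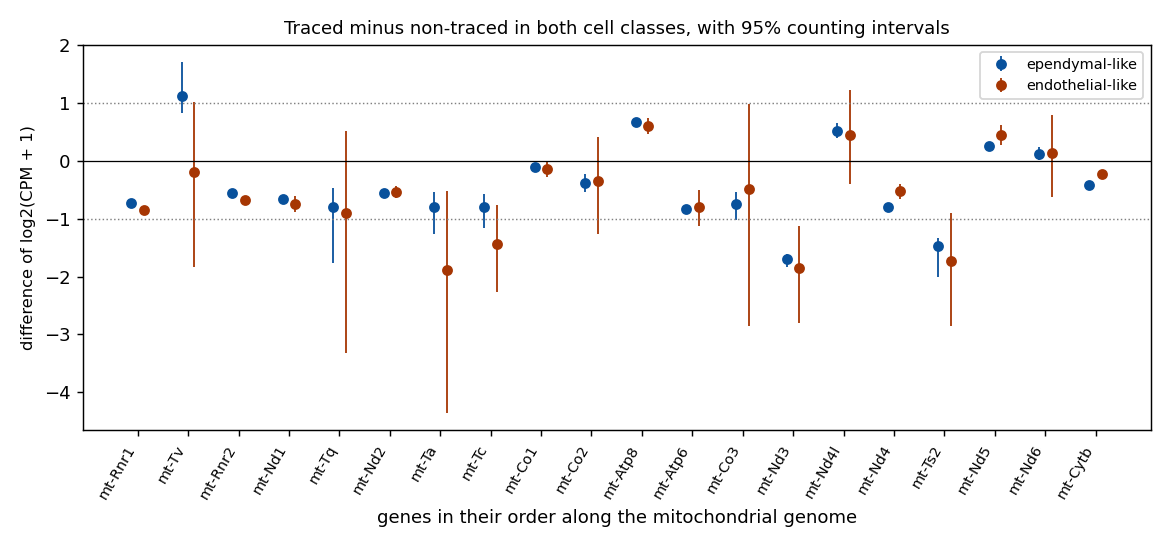
Traced minus non-traced difference in log2(CPM + 1) for each mitochondrial gene of at least 10 CPM in any group, in ependymal-like (blue) and endothelial-like (brown) cells. Bars are exact 95% counting intervals of the ratio without the pseudocount; mt-Nd3 lies at -1.69 and -1.85, and mt-Atp8, mt-Nd4l and mt-Nd5 lie above 0 in both classes.

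Other values also moved with the library. Gm42418, a row that overlaps ribosomal RNA sequence, went from 13141 to 33449 CPM in ependymal-like and from 9434 to 15941 CPM in endothelial-like cells. The hemoglobin gene Hbb-bs went from 16.8 CPM to 0 and from 570 CPM to 0. With the mitochondrial rows and Gm42418 left out of the total, the mt-Nd3 difference was as large, -1.69 in ependymal-like and -1.85 in endothelial-like cells. The mitochondrial rows were lower and Gm42418 higher in the traced library, so leaving out both could change the totals little. The part of these rows in the differences, that of mt-Nd3 included, was not tested.

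Between cell classes, mt-Atp6, mt-Atp8, mt-Cytb, mt-Nd2, mt-Nd4 and mt-Nd5 were at least 2-fold higher in ependymal-like than in endothelial-like cells of the same library. This held in both libraries, and these genes reached 50 CPM in both classes. In the non-traced library 8 of 15 mitochondrial genes of at least 50 CPM were higher by at least 1 on the log2 scale and 2 were lower, against 26.5% of all 4875 genes higher and 25.1% lower. In the traced library 9 of 12 were higher and none was lower, against 25.0% of all 5008 genes higher and 24.1% lower. There mt-Tc (-1.64) and mt-Ts2 (-1.78) were lower but stayed under 50 CPM. In both libraries mt-Nd4l and mt-Nd6 passed this limit through ependymal-like cells alone. In the non-traced library mt-Tc and mt-Ts2 passed it through endothelial-like cells alone. Nothing is read from the calls of these genes. The median of the mitochondrial genes was 1.03 in the non-traced and 1.13 in the traced library, beside -0.04 over all genes in both. Of the protein and ribosomal RNA genes, the 5 protein genes from mt-Nd4l to mt-Cytb on the map led, while mt-Ts2, a transfer RNA gene among them, lay below 0. In the non-traced and the traced library mt-Nd4l differed by 1.79 and 1.85, mt-Nd6 by 1.69 and 1.68, mt-Nd5 by 1.64 and 1.44, mt-Nd4 by 1.62 and 1.34 and mt-Cytb by 1.48 and 1.28. mt-Nd3, which lies just before them, differed only by 0.61 and 0.77, mt-Rnr2 by 0.41 and 0.52 and mt-Nd1 by 0.29 and 0.38. The share of all mitochondrial rows differed by 0.77 in the non-traced and 0.83 in the traced library. Scaled to mitochondrial UMIs alone, mt-Nd1 (-0.49 and -0.45), mt-Rnr2 (-0.36 and -0.31), mt-Nd3 (-0.15 and -0.04), mt-Co2 (-0.13 and -0.22) and mt-Co1 (-0.02 and -0.05) lay below 0. Only mt-Nd4l of the genes with at least 50 CPM was then higher by at least 1, at 1.07 and 1.06. It passed the limit through ependymal-like cells alone, so nothing is read from this call either.

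Among the transfer RNAs, which carry amino acids to the mitochondrial ribosome, mt-Tc and mt-Ts2 went the other way. mt-Tc, for cysteine, had 75.9 CPM in endothelial-like and 14.9 CPM in ependymal-like cells of the non-traced library, and 27.5 CPM (16 UMIs) and 8.14 CPM in the traced library. mt-Ts2, for serine, had 59.3 and 13.7 CPM, then 17.2 (10 UMIs) and 4.30 CPM, in the same order. The endothelial-like level was 5.11-fold the ependymal-like level for mt-Tc and 4.33-fold for mt-Ts2 in the non-traced library, and 3.39-fold and 4.01-fold in the traced library. Between the libraries mt-Ts2 differed by -1.47 in ependymal-like and -1.73 in endothelial-like cells. The intervals of its log2 ratio without the pseudocount ran from -2.01 to -1.33 and from -2.85 to -0.91. Between the libraries mt-Tc differed by -0.79 and -1.43 (-0.90 in endothelial-like cells as a share of mitochondrial UMIs). mt-Ta, for alanine, had 21.8 and 10.4 CPM in endothelial-like and ependymal-like cells of the non-traced library, then 5.17 (3 UMIs) and 5.56 CPM. mt-Tq, for glutamine, had 10.6 and 3.48 CPM, then 5.17 (3 UMIs) and 1.59 CPM. mt-Tv, for valine, whose gene lies between the ribosomal RNAs, differed in its pattern. It went from 5.69 to 13.6 CPM in ependymal-like cells (1.12, interval 0.83 to 1.71) and from 9.97 to 8.61 CPM (5 UMIs) in endothelial-like cells. The other 17 transfer RNAs stayed under 10 CPM in every group, and mt-Te and mt-Ty had no UMI in ependymal-like cells of either library. Some of these low genes differed between the classes of the non-traced library beyond counting error, in both directions. In ependymal-like and endothelial-like cells mt-Ti had 5.22 and 0.394 CPM, mt-Tt 8.36 and 2.09 CPM, and mt-Ts1 0.928 (8 UMIs) and 7.66 CPM. By strand, the 8 minus-strand transfer RNAs held 0.351% of the mitochondrial UMIs of endothelial-like and 0.0537% of those of ependymal-like cells in the non-traced library, and the 14 plus-strand ones 0.248% and 0.0809%. In the traced library the minus-strand ones held 0.165% and 0.0409% and the plus-strand ones 0.195% and 0.107%, so that in endothelial-like cells the order of the strands was the opposite, though within counting error on 22 and 26 UMIs.

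**Figure D5:**
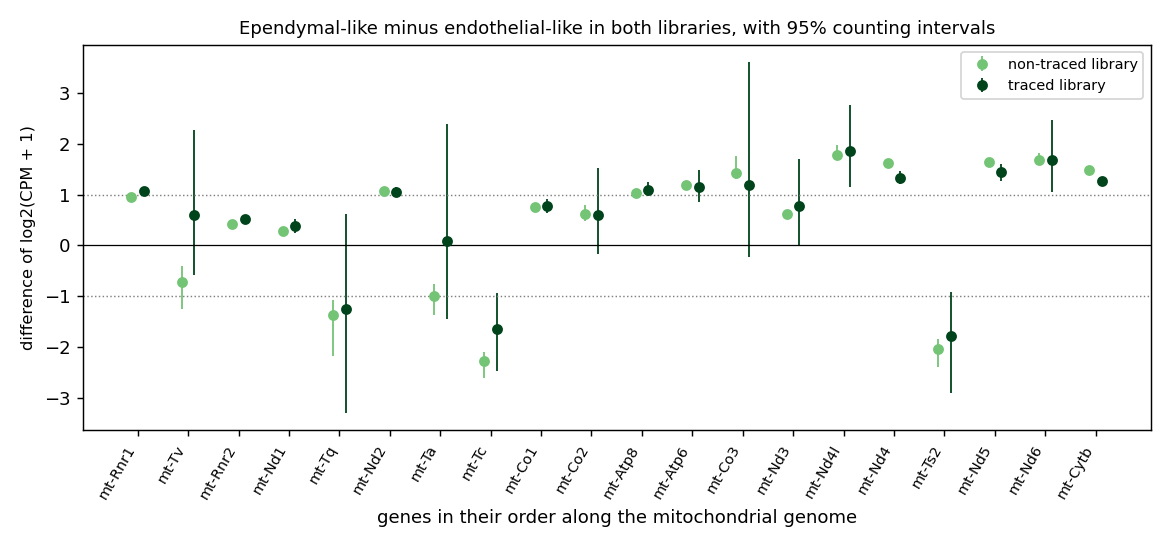
Ependymal-like minus endothelial-like difference in log2(CPM + 1) for each mitochondrial gene of at least 10 CPM in any group, in the non-traced (light) and traced (dark) library, with exact 95% counting intervals of the ratio without the pseudocount. In CPM the messenger RNAs lie above 0 in both libraries, with mt-Nd4l highest at 1.79 and 1.85 (as shares of mitochondrial UMIs mt-Nd1, mt-Nd3, mt-Co1 and mt-Co2 lie below 0), while mt-Tc and mt-Ts2 lie below -1.

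The transfer RNA levels also varied among the endothelial-like clusters of the non-traced library. mt-Tc ranged from 36.5 to 129.5 CPM and mt-Ts2 from 15.6 to 134 CPM over the 10 clusters, while mt-Nd3 ranged from 62.7 to 108 CPM and mt-Nd1 from 957 to 1533 CPM. Both transfer RNAs were highest in cluster 4, led by Fam13a and hemoglobin genes, with a mitochondrial share of 4.67%. The 51 cells of cluster 9 had the highest share, 5.02%, with 112 CPM of mt-Tc and 99.5 CPM of mt-Ts2, and hemoglobin genes led them too. Their top 10 genes also held Acta2 and, of the genes that led ependymal-like clusters, Nnat and Mt3. The 3 clusters with least mt-Ts2 had the lowest shares. They were cluster 6, led by Nov, with 15.6 CPM and a share of 2.90%, cluster 12, led by Fbln5 and Pi16, with 16.6 CPM and 2.93%, and cluster 3, led by the arterial genes Gkn3, Bmx and Sema3g, with 30.6 CPM and 2.92%. Cluster 1, whose top genes were Hbb-bt, Hbb-bs, Hba-a1 and Hba-a2, lay in the middle, with 73.9 CPM of mt-Tc, 55.1 CPM of mt-Ts2 and a share of 3.67%. The part of RNA from blood cells and from other cell classes in these values was not tested.

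Nuclear genes of the same pathway moved less than the mitochondrial genes. Of 81 listed nuclear subunits of complexes I to V, 78 reached 10 CPM in ependymal-like cells. In the traced library 1 of them was lower by at least 1 on the log2 scale and none higher, against 1.32% of all 9561 genes lower and 0.764% higher. The one gene was Cox7a1, a complex IV subunit typical of muscle, which went from 29.5 to 12.3 CPM. The median difference of the 78 was -0.15, beside 0.03 over all genes, and 69 lay below 0. Cox4i1 of the same complex went from 738 to 510 CPM (-0.53), Ndufs6 of complex I differed by -0.38 and Ndufs1 by 0.14. Sdhc of complex II, which has no mitochondrial gene, differed by -0.44 and Sdhb by 0.12, Uqcrh of complex III by -0.37 and Uqcrfs1 by 0.04, and Atp5b of ATP synthase by -0.34 and Atp5c1 by 0.11. In endothelial-like cells the median was -0.19, beside 0.11 over all genes, with none of 77 past 2-fold, against 12.3% of all genes there. Between classes of the non-traced library the same list had a median of 0.07, beside 0.08 over all genes, with 3 of 78 higher and none lower in ependymal-like cells, against 27.2% and 19.6% of all 10495 genes. The median of 1.03 of the mitochondrial genes between these classes was thus not seen in the nuclear subunits. Summed, the list went from 2.27% to 2.04% of UMIs in ependymal-like and from 2.12% to 1.83% in endothelial-like cells.

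Genes that make or handle mitochondrial RNA did not follow the mitochondrial transcripts. Of 40 listed transcription and RNA processing factors 26 reached 10 CPM in ependymal-like cells, none differed 2-fold between the libraries, and the median was 0.10. Since 1.32% of all genes were lower and 0.764% higher by that much, a count of 0 in a list of this size is close to the background, here and in the lists that follow, and nothing is read from it. In endothelial-like cells 24 of the factors reached 10 CPM, of which 1 was higher and 1 lower by at least 1. Of all 9357 genes there, 10.1% were higher and 2.2% lower, so nothing is read from this count. The median of the factors was 0.04, beside 0.11 over all genes. Lrpprc, which stabilises mitochondrial messenger RNAs, went from 23.0 to 31.5 CPM and its partner Slirp from 100.7 to 82.3 CPM. Fastkd1, of a family of mitochondrial RNA-binding proteins, went from 8.24 to 11.1 CPM, and Mrm2, a ribosomal RNA methyltransferase, from 12.1 to 10.2 CPM. The mitochondrial ribosomal proteins (76 of 81 at 10 CPM, none past 2-fold) had a median of -0.05, from -0.36 for Mrps18c to 0.57 for Mrpl1. The list of import and mitochondrial mass (17 of 20, none past 2-fold) had a median of 0.02, with the chaperonin Hspd1 at 0.52, Immt of the inner membrane at 0.41, the import receptor Tomm20 at -0.14 and the regulator Ppargc1a at -0.43. None of these lists thus shared the median of -0.56 of the mitochondrial genes.

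Lists that bear on the state of the RNA were read in the same way. The cytosolic ribosomal proteins (81 of 86 at 10 CPM, none past 2-fold) had a median of -0.23 in ependymal-like cells, with 77 below 0, from -0.85 for Rps12 to 0.17 for Rpl15. Genes of the dissociation response (16 of 16, none past 2-fold), immediate early genes that rise when tissue is taken apart, had a median of -0.52, with Zfp36 at -0.98, Ier3 at -0.81, Fos at -0.07 and Btg2 at 0.05. Their median between ependymal-like and endothelial-like cells of the non-traced library was -1.76. Of the nuclear-retained RNAs, Malat1 went from 58381 to 62398 CPM in ependymal-like cells, Meg3 from 383 to 450 CPM, Neat1 from 79.8 to 47.2 CPM and Xist from 245 to 166 CPM. The part of the dissociation response and of these RNAs in the mitochondrial differences was not tested.

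The genes most like mt-Nd3 in its differences between the libraries, which chose it, are given as a description. Of 5319 genes with at least 50 CPM in any of the 4 groups, 12 were lower by at least 1 in the traced library in both classes. The 10 genes whose pair of differences (ependymal-like, endothelial-like) lay nearest to that of mt-Nd3, by Euclidean distance over these 2 comparisons, were Slc38a5 (-1.84 and -1.96), mt-Ts2 (-1.47 and -1.73), Icam1, Cpe, Hhex, Gm26669, Ccdc85b, Car5a, Arhgef15 and Apod, at distances from 0.186 to 0.967. Except Gm26669, with 51.8 and 23.4 CPM, these had under 14 CPM in both groups of ependymal-like cells, whereas mt-Nd3 had 128 and 38.8 CPM there. They met the limit of 50 CPM through endothelial-like cells, as did Slc38a5 with 230 CPM, Icam1 with 101 CPM, Hhex with 75.1 CPM and Car5a with 103 CPM in the non-traced library.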

How the data were processed

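Droplet-based RNA sequencing (Chromium 3′ kit) was done by the authors on 2 libraries. The deposited values were UMI counts per gene and barcode, which the authors made with Cell Ranger 3.0.2 and STAR 2.5.1b against mm10 with reporter sequences added, and had not normalised; the submitters' processing notes also name R 3.6.0 and Seurat 3. A row absent from 1 table was set to 0 there. The study's filter (at least 50 genes per cell, mitochondrial genes at most 10% of detected genes) left all cells; by UMIs 112 of 25411 and 63 of 4825 cells exceeded 10%.

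Clustering used Seurat 5.3.0 under R 4.3.3, which integrated the libraries on 2000 features other than mitochondrial or reporter rows (20 components, resolution 0.8). Each library's part of a cluster took the class with most cells showing its markers; it stayed unnamed with fewer than 3 markers in 50% of its cells, with over 50% of another class's markers there, or with another class leading its top 10 genes (3132 of 25411 and 8 of 4825 cells unnamed). The thresholds of this rule were chosen with the data in view. Doublets were kept. Counts were summed per class and library and scaled to CPM; differences are in log2(CPM + 1), and past 2-fold means a size of at least 1. With 1 library per group no test was run. Intervals (95%) are exact Clopper-Pearson for shares, exact Poisson for sums, and conditional exact for ratios. Those of ratios leave out the pseudocount and so are not centred on the log2(CPM + 1) difference beside them. A count of 3 corresponds to 0.348, 0.0654, 0.0162 and 5.17 CPM in non-traced and traced ependymal-like and non-traced and traced endothelial-like cells. The scripts (Python 3.11.15, SciPy 1.17.1, Biopython 1.88) were checked on simulated data. Coordinates and sequences came from GENCODE M21 (GRCm38), in which all 37 rows and 7 nuclear copies matched; a genome sequence was not used here.

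The members and gene lists were chosen with earlier results of these data known. Named were all protein and ribosomal RNA genes, transfer RNAs of at least 10 CPM in any group, the 2 members of each list with the largest difference in each direction in ependymal-like cells at 10 CPM or more (given as ranges or examples where the text is brief), and the 10 genes nearest to mt-Nd3. Alternatives concerned the filter on cells, clustering, naming, depth, weights, scaling, pseudocount and the filter on low genes.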

Additional observations from a re-analysis of the deposited data

Results flagged for a closer look

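Cells outside every comparison above had the highest mitochondrial share of the non-traced library among clusters of at least 20 cells. The 86 non-traced cells of cluster 17 had 7.19% mitochondrial UMIs, above the 5.79% of the ependymal-like and the 3.39% of the endothelial-like class of that library. They were left unnamed because they carried astrocyte and endothelial markers together, and Slc1a2, Pla2g7 and Aldoc led them. mt-Nd3 was at 179 CPM in them (152 to 209). The 194 traced cells of the same cluster were ependymal-like, with a share of 4.54% and 47.8 CPM of mt-Nd3.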

How the results depend on the processing

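No paired analysis was possible because each group is a single library. Every sum rests on 1 library, and the traced endothelial-like values rest on 55 cells, so that low genes there rest on few UMIs. No difference changed sign where it had been past 2-fold. The order of the 4 mitochondrial shares held under all 7 alternatives. In the order non-traced ependymal-like, traced ependymal-like, non-traced endothelial-like and traced endothelial-like, the shares that moved were 5.69%, 4.04% and 3.39% without cells over 10%, where the last stayed at 2.29%. The mean of per-cell shares gave 6.04%, 4.30%, 3.63% and 2.39%, and cells of 5000 to 10000 UMIs gave 5.83%, 4.24%, 3.705% and 2.37%. With each library clustered alone the non-traced ependymal-like and both endothelial-like shares were 5.69%, 3.23% and 2.19%, and with whole clusters named over both libraries they were 5.60%, 3.39% and 2.52%. Without the 5% of cells with the most UMIs, where doublets would lie, all but the non-traced ependymal-like share moved, to 4.16%, 3.49% and 2.44%. Leaving out the 42 shared barcodes moved none.

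The mt-Nd3 difference in ependymal-like cells was -1.21 when scaled to mitochondrial rows alone and between -1.71 and -1.64 under the other alternatives. The number of mitochondrial genes past 2-fold depended more on the settings. Between the libraries it rose from 1 to 3 in ependymal-like cells when scaled to mitochondrial rows (mt-Atp8, mt-Nd4l and mt-Nd3), with a limit of 10 CPM and with no filter (mt-Tv, mt-Nd3 and mt-Ts2 in both), and from 3 to 10 in endothelial-like cells with no filter. Between classes it fell from 10 to 3 in the non-traced library when scaled to mitochondrial rows, and in the traced library it went from 9 to 1 under that scaling, to 5 with whole clusters and to 16 with no filter. Scaling to mitochondrial rows removes the shared shift by construction. For the other moves the cause was not tested. At 10 CPM, 2.08% of all 9561 genes were past 2-fold between the libraries in ependymal-like cells. There mt-Tv and mt-Ts2 reached 10 CPM only in the group where each was higher. With no filter, the endothelial-like calls held genes such as mt-Ts1 and mt-Ta, with 0 and 3 UMIs in the traced group. The share over all genes was not computed with no filter or with another scaling. Nothing is therefore read from these counts.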

Other observations

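Other cells of the non-traced library that took no class name also differed in their mitochondrial RNA. The 284 cells of cluster 16, led by the smooth muscle genes Tagln, Acta2 and Myh11, had a mitochondrial share of 4.32% and 160.5 CPM of mt-Nd3 (141 to 182). The 71 cells of cluster 19 were led by the neutrophil genes S100a8 and S100a9 and by hemoglobin genes. Summed over these cells, the share was 2.45% and mt-Nd3 was at 56.1 CPM (38.9 to 78.4). The summed share did not describe the typical cell. The median cell of cluster 19 had 4.03%, with lower and upper quartiles of 1.65% and 8.47%. This median lay above that of the endothelial-like cells of the same library, 3.37%.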
